A study of Mus musculus with 282 samples.

Results

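The inflamed prostate cells high for the major histocompatibility complex class II (MHC II) genes H2-Aa and H2-Ab1 were set against the inflamed cells low for them, in single-cell RNA-seq of sorted basal prostate stem cells. Cells were chosen by their reads of these 2 genes: a cell was called high when it held at least 5 reads of the pair summed and low when it held 0 to 4, and only cells with at least 1000 detected genes and at least 50000 counts were used. By this rule 38 of the 80 kept inflamed cells of batch 2 and 73 of the 76 of batch 3 were high, and 42 and 3 were low, out of 268 kept and 282 deposited cells of the series. The levels of H2-Aa and H2-Ab1 are therefore a description with no test, and both genes were left out of every comparison.

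All cells came from prostates of male POET3 mice, a transgenic line that carries ovalbumin in the prostate and serves as a model of prostatitis. The groups used here were inflamed cells of batch 2 (38 high and 42 low), inflamed cells of batch 3 (73 high and 3 low) and, as the background, naive cells of batch 2 (53) and of batch 3 (59). The labels do not say how inflammation was brought about, how old the mice were or how many were used. Cells freed by enzymes were sorted with a viability dye and antibodies to Sca-1, CD49f, CD45 and CD31 and then captured singly on a Fluidigm C1 instrument. Each deposited sample is 1 cell and no label ties a cell to an animal, so cells of 1 batch may share a mouse and were not treated as replicates.

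MHC II molecules are pairs of an alpha and a beta chain that show peptides from taken-up proteins to CD4+ T cells. They are a hallmark of dendritic cells, macrophages and B cells, and epithelial cells can be made to carry them by interferon gamma, the cytokine of activated T cells and natural killer cells. Interferon gamma acts through JAK kinases and raises the master regulator Ciita. Ciita then works with the Rfx proteins at the promoters of the class II genes, of the invariant chain Cd74 and of the peptide exchange factor H2-DM.

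In batch 2 the cells fell into 2 nearly separate sets by the reads that defined the classes. The 38 high cells held 5 to 2563 reads (median 311.5), and the 42 low cells held 0 to 4 reads (median 1). Only 3 of the 80 cells held 5 to 19 reads, 26 held 1 to 4 and 16 held none. In batch 3 the high cells held 8 to 10650 reads (median 1791), and the only low cells were 3 cells with 0, 3 and 4 reads. High cells thus made up 47.5% of inflamed cells in batch 2 (38 of 80, exact Clopper-Pearson 95% interval 36.2 to 58.98%) and 96.1% in batch 3 (73 of 76, 88.9 to 99.2%). No naive cell reached 5 reads, 0 of 53 in batch 2 and 0 of 59 in batch 3, which allows shares of up to 5.66% and 5.08%, taking 3 cells of the total as the limit (exact upper bounds 6.72% and 6.06%). At 1 to 4 reads stood 26 of the 42 low inflamed cells of batch 2, against 0 of 53 naive cells of the same batch. In batch 3 that many reads were found in 8 of 59 naive cells. Intervals and limits on shares cover counting error only. They take cells as separate draws, though cells of 1 batch may share a mouse. Intervals on CPM take reads as separate counts, though the reads carry no molecular identifiers. The cells nearest the threshold held 5, 9 and 19 reads just inside it and 4, 3 and 3 reads just outside it in batch 2.

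**Figure D1:**
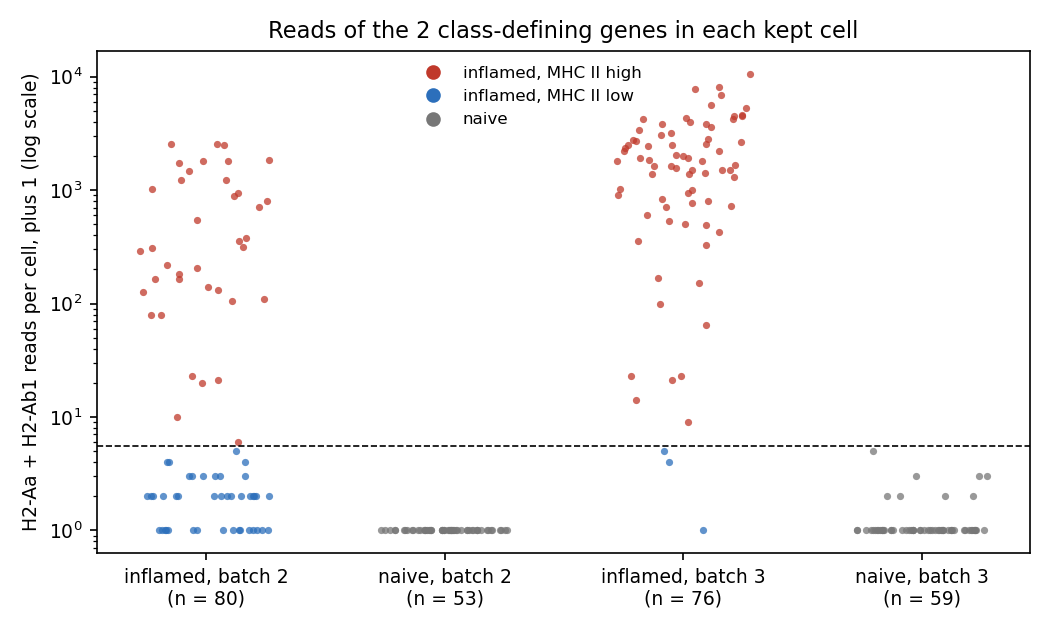
Summed reads of H2-Aa and H2-Ab1, plus 1, in each kept cell on a log axis, with inflamed cells left of the naive cells of the same batch. The dashed line marks the limit of 5 reads: inflamed cells of batch 2 lie on both sides (38 above, 42 below), 73 of 76 inflamed cells of batch 3 lie above it, and all naive cells lie below.

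Depth differed between the classes. In batch 2 the median total was 1141737 counts and 5008.5 detected genes in high cells, against 954489 counts and 4505.5 genes in low cells. All 10 batch 2 inflamed cells under 500000 counts were low. The sums over cells held 44314682 counts (high) and 34910648 (low) in batch 2, and 76238818 (high) and 2220304 (low) in batch 3. Levels are given as CPM, the reads scaled by library size, in the class sums after TMM scaling and in single cells and naive sums by total counts. Shares of cells with a read were also taken after each cell was thinned to 500000 counts, which 38 high and 32 low cells of batch 2 could supply. The share with a read was higher in high cells for 72.1% of the 12882 genes tested as deposited, and for 52.6% at equal depth. Mitochondrially encoded genes took a median of 3.29% of counts in high cells of batch 2 and 4.35% in low cells, where 1 cell reached 94.3%. Among cells with at least 500000 counts the medians were 3.29% (high) and 3.76% (low). What part depth and mitochondrial share have in the differences below was not tested.

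Both classes carried the basal epithelial genes that the sort aims at. All 20 basal genes listed had reads in both classes, and their summed level had a median of 16273 CPM per cell (range 289 to 42016) in high cells of batch 2 and 16292 CPM (589 to 37103) in low cells. Krt14, a keratin of basal cells, had a lowest, median and highest level of 0, 1051 and 2998 CPM in high cells and of 0, 813 and 5808 CPM in low cells. Of 15 leukocyte genes, 4 had reads in high cells and 3 in low cells of batch 2, and the summed level per cell had a median of 1.82 CPM (0 to 679) in high cells and 0.824 CPM (0 to 547) in low cells. The leukocyte genes with reads in both classes of batch 2 were Arhgdib, Lcp1 and Ptpn6. Their log2 folds of high over low were 1.19, -1.57 and -1.04. Ptprc (CD45), Laptm5, Tyrobp and Spi1 were listed at 0 in all 268 kept cells. Of 23 genes of professional antigen-presenting cells, 5 had reads in high cells (median 1.36 CPM per cell, 0 to 1742) and 6 in low cells (3.13 CPM, 0 to 851). Those with reads in both classes of batch 2 were Cd14, Cd68, Zbtb46 and Fscn1, with log2 folds of 0.39, 0.71, -0.03 and -2.26. The macrophage and dendritic genes Csf1r, Lyz2, Adgre1, Flt3 and Clec9a were listed at 0 in both classes and both batches. Of these 5, only Flt3 had a read elsewhere, 1 read in 1 naive cell. Whether a row at 0 in every cell was measured as such is not stated, so these zeros were not read as absence of the cells they mark, and the same holds for other genes given below with no read in any cell.

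The comparison asks which other genes go with MHC II reads in inflamed basal cells. Counts were summed over the cells of each class and batch, and the 4 sums were compared with edgeR's quasi-likelihood test with the batch in the model. No gene passed a Benjamini-Hochberg adjusted p of 0.05 as higher in high cells (0.0% of 12882 genes), and 2 passed as lower (0.0155%). At an unadjusted p under 0.05, 12 genes were higher (0.0932%) and 26 lower (0.202%), and DESeq2 called 500 higher (2.55% of the 19604 genes to which it gave an adjusted p) and 16 lower (0.0816%). The low sum of batch 3 rests on 3 cells and held no read of 7718 of the 12882 genes (59.9%). The median log2 fold over all genes was accordingly 5.30 in batch 3 and 2.08 in the 4-sum fit, but 0.02 in batch 2.

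The 2 genes called lower were Sdc4, which encodes the cell surface proteoglycan syndecan 4, and the cytoskeletal actin gene Actb. Sdc4 stood at 14301 CPM in high cells and 14723 CPM in low cells of batch 2, and at 24063 CPM in high cells and 66376 CPM in the 3 low cells of batch 3 (fitted log2 fold -0.75 ± 0.12 SE, edgeR adjusted p = 3.26e-06). Actb stood at 22364 CPM (high) and 22650 CPM (low) in batch 2, and at 26702 CPM (high) and 54937 CPM (low) in batch 3 (-0.53 ± 0.11 SE, edgeR adjusted p = 0.0174). Both differences lay in batch 3. The within-batch log2 folds of Sdc4 were -0.04 in batch 2 and -1.46 in batch 3, so its small SE is no measure of agreement between the batches. Without the batch 3 low cell that held 0 MHC II reads, the log2 fold of Sdc4 was 0.02.

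For these reasons the gene groups below are described within batch 2, as 1 sum per class with no test. There, 3403 of the 12882 genes were at least 2-fold higher in high cells (26.4%) and 2902 at least 2-fold lower (22.5%), so a 2-fold gap for a single gene was common. As a second view, the kept inflamed cells of each batch were split at the batch's median of H2-Aa and H2-Ab1 CPM. In batch 3 the 38 cells above it had a median of 3046 CPM and the 38 below it 582 CPM. Only 3 kept inflamed cells of batch 3 were low, so nearly all cells below its median were high by the rule. The split of batch 3 is thus mostly a comparison among high cells and not the same contrast as high against low in batch 2. No gene was called in a test of above-median against below-median cells over both batches (edgeR, 0 higher and 0 lower of 13197, and at an unadjusted p under 0.05 1.76% higher and 1.45% lower). In batch 3 alone, 27.8% of these genes were at least 2-fold higher above the median and 24.8% at least 2-fold lower.

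Cd74, the invariant chain that escorts MHC II to the peptide-loading compartment, went with H2-Aa and H2-Ab1 most closely. In batch 2 its lowest, median and highest level per cell were 0, 574 and 4611 CPM in high cells, against 0, 3.64 and 1076 CPM in low cells. The 2 classes overlapped, but the middle of the high cells lay far above that of the low cells. Reads of Cd74 were found in 37 of 38 high cells (97.4%, 86.2 to 99.9%) and 32 of 42 low cells (76.2%, 60.5 to 87.9%), and at equal depth in 94.7% of high and 71.9% of low cells. Only 2 of 53 naive cells of batch 2 held a Cd74 read. The sums came to 807 CPM (high) and 98.5 CPM (low), a log2 fold of 3.03. In batch 3 the sums were 2996 CPM (high) and 856 CPM in the 3 low cells, where single cells stood at 27.1, 765 and 4502 CPM. The 4-sum fit gave 2.42 ± 0.81 SE (p = 0.00279, edgeR adjusted p = 0.9997).

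Cd74 also varied with MHC II reads inside the high class. The Spearman correlation of its CPM with the summed CPM of H2-Aa and H2-Ab1 was 0.58 over the 80 inflamed cells of batch 2 and 0.66 over the 76 of batch 3, and within the high cells alone 0.61 (38 cells) and 0.67 (73 cells). These are descriptions over cells that share a library run, and MHC II CPM itself had a correlation of 0.24 and 0.09 with total counts. Among low cells of batch 2, Cd74 did not depend in order on the few MHC II reads: its median was 2.83 CPM in the 26 cells with 1 to 4 reads and 14.5 CPM in the 16 cells with none. In the 3 high cells of batch 2 with 5 to 19 reads, its median was 2.36 CPM, against 613 CPM in the 35 cells with at least 20 reads.

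H2-Eb1, the beta chain of the I-E molecule, was found in 21 of 38 high cells (55.3%, 38.3 to 71.4%) and 10 of 42 low cells (23.8%, 12.1 to 39.5%) of batch 2. The sums were 108.8 CPM (high) and 25.2 CPM (low), a log2 fold of 2.10. A single low cell gave 92.3% of the low reads, with 849 reads of H2-Eb1 beside 1 of H2-Aa and H2-Ab1 and 12 of Cd74 in 137466 counts. Without the top cell of each class the sums were 94.2 CPM (high) and 1.96 CPM (low), a log2 fold of 5.56. In batch 3, 65 of 73 high cells held a read, at 425 CPM, and cells above the median stood at 583 CPM against 325 CPM below it. The correlation with MHC II CPM was 0.45 in batch 2 and 0.44 in batch 3. The pseudogene H2-Ea-ps had reads in 1 high cell of batch 2.

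The peptide exchange factor was sparse. H2-DMb1, one of its beta chain genes, had reads in 12 of 38 high cells and 3 of 42 low cells of batch 2 (31.6%, 17.5 to 48.7%, against 7.14%, 1.5 to 19.5%, and 28.9% against 6.25% at equal depth), at 31.8 CPM in the high sum and 1.54 CPM in the low sum. In batch 3 it was found in 31 of 73 high cells. H2-DMa, the alpha chain, stood at 33.2 CPM (high) and 38.6 CPM (low) in batch 2, but 99.6% of the low reads came from 1 cell with no read of H2-Aa, H2-Ab1 or H2-Eb1. At equal depth H2-DMa was found in 18.4% of high and 3.12% of low cells. H2-DMb2, a near copy of H2-DMb1 whose reads may be shared with it, stood at 5.21 CPM in high cells, 99.6% of it in 1 cell, and was at 0 in low cells. H2-Oa and H2-Ob, which form the inhibitor of H2-DM in B cells, had no read in any inflamed cell.

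The regulators of the class II promoters did not follow their targets. Ciita had no read in the 38 high cells of batch 2 and 3 reads in 1 low cell, and in batch 3 it had 344 reads in 3 of 73 high cells. In batch 3, 2 naive cells held 695 reads of it. Rfx5 was found in 0 of 38 high cells and 5 of 42 low cells of batch 2 (0 and 5.43 CPM). Its partners Rfxap (0.803 and 2.52 CPM in the high and low sums) and Rfxank (0.0206 and 1.34 CPM) had nearly all their reads in single cells. Counting these regulators, 4 of the 8 tested members of the class II list were at least 2-fold higher in high cells and 3 at least 2-fold lower, with a median log2 fold of 0.94, against 0.02 over all genes. The 4 higher were Cd74, H2-Eb1, H2-DMb1 and H2-DMb2, and the 3 lower were Rfx5, Rfxap and Rfxank. Among cells with at least 500000 counts, 5 were higher and 3 lower.

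The promoters of 2 class II genes are shown because they carry the Y box, an element known from class II promoters that NF-Y binds. The site that the Rfx proteins bind was not searched. They are the 250 bases before the RefSeq start (GRCm38.p6), of H2-Aa at chr17:34287824-34288073 on the minus strand and of H2-Eb1 at chr17:34305617-34305866 on the plus strand, 5′ to 3′, with the Y box in capitals.
H2-Aa: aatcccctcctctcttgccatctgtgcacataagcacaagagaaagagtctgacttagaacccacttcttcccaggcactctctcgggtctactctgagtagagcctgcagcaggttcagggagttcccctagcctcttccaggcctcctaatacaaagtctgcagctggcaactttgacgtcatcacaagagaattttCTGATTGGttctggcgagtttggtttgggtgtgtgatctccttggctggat
H2-Eb1: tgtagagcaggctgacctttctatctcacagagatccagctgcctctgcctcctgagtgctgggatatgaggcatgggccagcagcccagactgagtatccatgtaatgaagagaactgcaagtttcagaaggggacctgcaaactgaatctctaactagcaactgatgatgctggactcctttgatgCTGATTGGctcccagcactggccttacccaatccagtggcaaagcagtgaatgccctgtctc
The motif CTGATTGG, searched on both strands, lies 51 to 44 bases before the start of H2-Aa and 62 to 55 bases before that of H2-Eb1. It is found in 3.83% of 32851 mouse promoters of this length. Of 9 class II list members with a promoter in the table, 3 held it: H2-Eb1, and H2-Eb2 and H2-Oa, which had no read in high or low cells of batch 2. It was not particular to that list. Of 10 MHC class I promoters, 4 held it (H2-D1, H2-Q6, H2-Q7 and H2-T23). Of 10 promoters of peptide loading and the immunoproteasome, 2 held it (Tap1 and Psmb9).

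**Figure D2:**
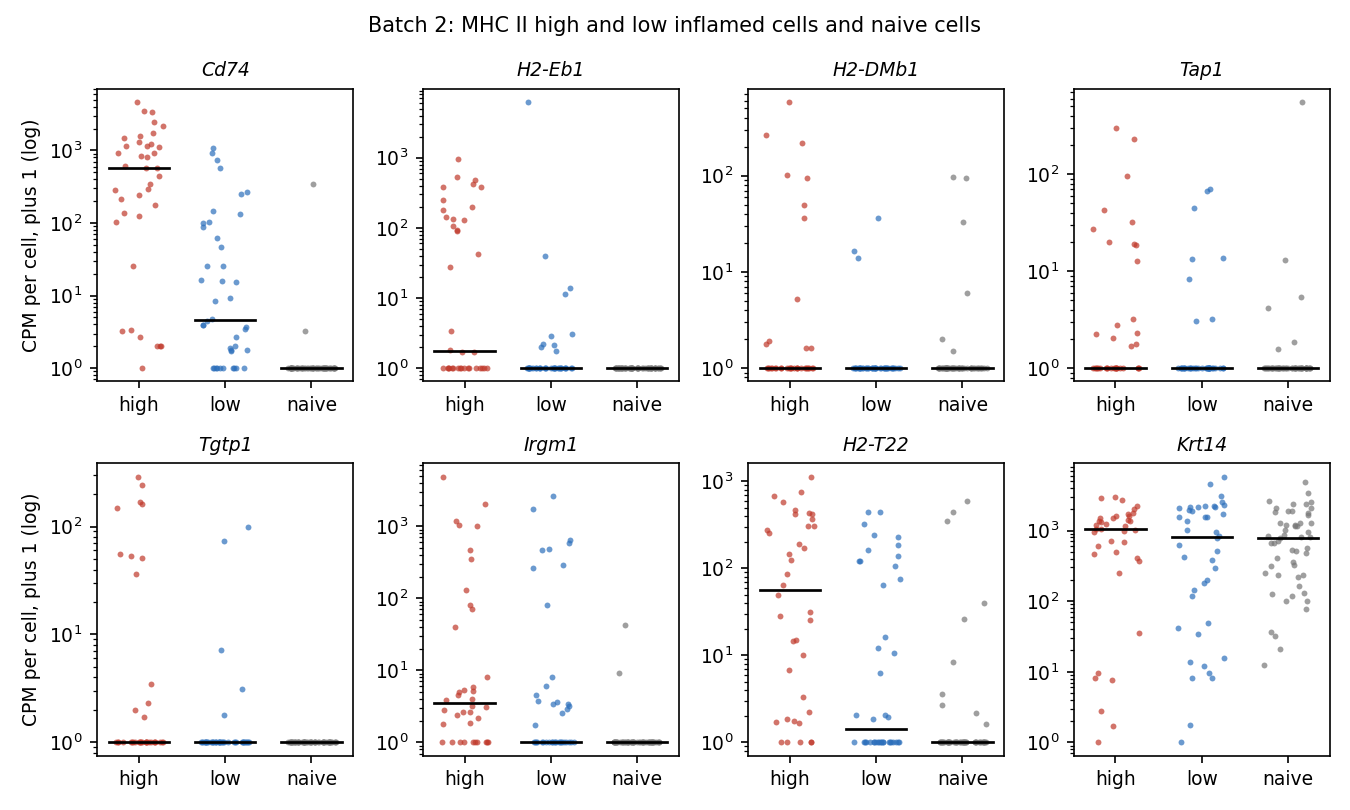
CPM per cell, plus 1, on log axes for 8 genes in batch 2: 38 high cells, 42 low cells and 53 naive cells, with the black bar at the median. Cd74 is spread over the high cells (median 574 CPM) and sits near the floor in most low cells (median 3.64 CPM), while the Krt14 levels of the 3 groups overlap widely.

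MHC class I, which shows peptides from inside the cell to CD8+ T cells, was at like levels in both classes for its abundant chains. B2m, the light chain, stood at 4143 CPM in high cells and 4199 CPM in low cells of batch 2, H2-K1 at 2224 CPM (high) and 2034 CPM (low), and H2-D1 at 3879 CPM (high) and 3533 CPM (low). In each, every cell of both classes held reads. The same 3 genes stood at 727, 433 and 327 CPM in naive cells of batch 2, so low cells were above naive cells in class I chains. Of 12 class I genes tested, 5 were at least 2-fold higher in high cells and none at least 2-fold lower (median log2 fold 0.39, all genes 0.02). These 5 were H2-T22, H2-T24, H2-M3, Cd1d1 and Nlrc5. Across the median of batch 3, 2 of the 12 were at least 2-fold higher and 2 at least 2-fold lower (median 0.22). The 2 lower were H2-M3, with 6.04 CPM above and 54.99 CPM below, and Cd1d1, with 0.567 CPM above and 11.4 CPM below. H2-M3 was also lower above the median of batch 2, at 16.6 CPM, against 39.7 CPM below it.

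H2-T22, a nonclassical class I gene, was the most widely found of the 5. It had a lowest, median and highest level of 0, 55.5 and 1133 CPM in high cells and 0, 0.433 and 442 CPM in low cells, and reads in 33 of 38 high cells (86.8%, 71.9 to 95.6%) and 21 of 42 low cells (50%, 34.2 to 65.8%). At equal depth the shares were 81.6% (high) and 53.1% (low). In batch 3, cells above the median stood at 522 CPM and those below it at 387 CPM. Nlrc5, the class I counterpart of Ciita, was at 38.8 CPM in 14 of 38 high cells and 9.71 CPM in 5 of 42 low cells (28.9% and 15.6% at equal depth), and 71.9% of the high reads came from 1 cell. Nlrc5 had no read in naive cells of batch 2. Class I genes have near copies in the genome, and their reads may be divided between them.

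Of 12 genes of peptide loading and the immunoproteasome, 5 were at least 2-fold higher in high cells of batch 2 and 1 at least 2-fold lower (median log2 fold 0.48). Tap1, a subunit of the peptide transporter, was found in 17 of 38 high cells and 8 of 42 low cells (44.7%, 28.6 to 61.7%, against 19.05%, 8.60 to 34.1%), with 16.1 CPM in the high sum and 3.60 CPM in the low sum. At equal depth it was found in 36.8% of high and 15.6% of low cells, and in batch 3 it stood at 157.5 CPM above the median and 86.4 CPM below it. Psmb8, a catalytic immunoproteasome subunit, stood at 110 CPM (high) and 36.1 CPM (low) in batch 2 but was found in 47.4% of high and 50% of low cells at equal depth. In batch 3 it stood at 376 CPM above and 186.6 CPM below the median. Erap1, which trims peptides in the endoplasmic reticulum, stood at 273 CPM (high) and 67.8 CPM (low) in batch 2, and at 94.8 and 92.9 CPM above and below the median in batch 3. Tapbpl stood at 34.6 CPM (high) and 10.6 CPM (low), with 94.6% of the low reads in 1 cell, and had the other order in batch 3, at 23.3 CPM above and 135.9 CPM below the median. Over the list, 1 of 12 was at least 2-fold higher and 2 at least 2-fold lower across the median of batch 3. The lysosomal proteases of the class II pathway showed no such gap, with 0 of 6 genes past 2-fold in either direction (median 0.21).

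**Figure D3:**
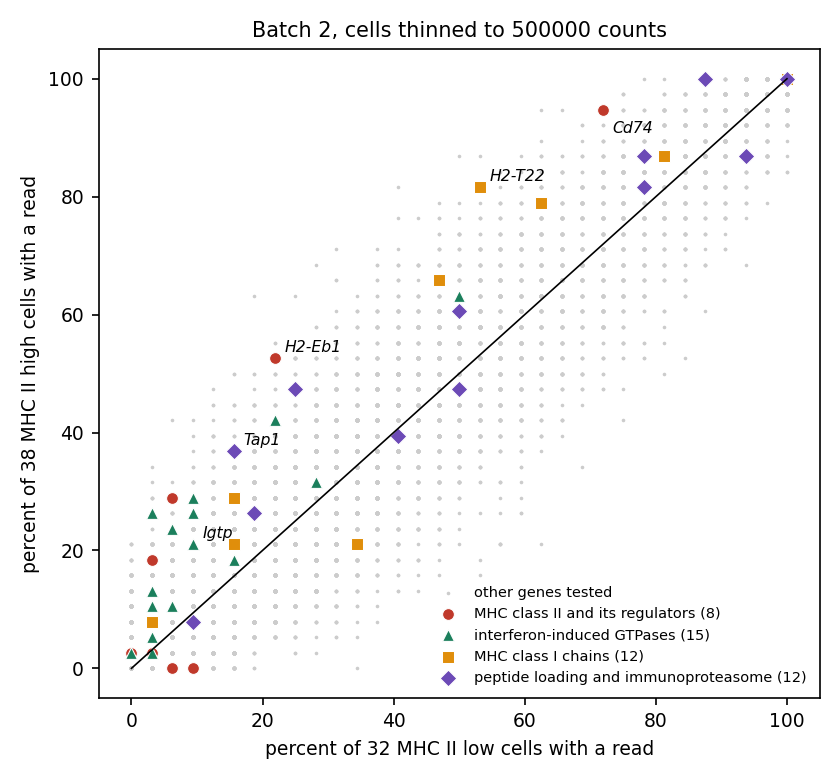
Percent of cells with a read at equal depth in batch 2, in 38 high cells (vertical) against 32 low cells (horizontal), for all tested genes (grey) and 4 gene lists. Cd74 (94.7% and 71.9%), H2-T22 (81.6% and 53.1%), H2-Eb1 (52.6% and 21.9%) and Tap1 (36.8% and 15.6%) lie above the line of equal shares, as do 14 of the 15 GTPases.

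The interferon-induced GTPases, which attack vacuoles of intracellular microbes and are among the strongest known targets of interferon gamma in mouse cells, had a high median in batch 2. Of 15 tested, 10 were at least 2-fold higher in high cells and 2 at least 2-fold lower (Gbp5 and Gbp6), with a median log2 fold of 3.08 against 0.02 over all genes. The share of cells with a read was higher in high cells for 14 of 15, as deposited and at equal depth. With the top cell of each gene left out of each sum, 10 were higher and none lower, with a median of 2.03. Across the median split of batch 3, 8 of 15 were at least 2-fold higher and 1 lower (median 1.25, all genes 0.00), and 4 had an unadjusted p under 0.05 in the test over both batches, with adjusted p of 1 each. Reads of the Gbp genes, Tgtp1 and Tgtp2 may be divided among near copies.

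Igtp, also known as Irgm3, had reads in 12 of 38 high cells and 5 of 42 low cells of batch 2 (31.6%, 17.5 to 48.7%, against 11.9%, 3.98 to 25.6%, and 21.1% against 9.38% at equal depth), with a highest cell of 1787 CPM (high) and 188.7 CPM (low). The sums were 86 CPM (high) and 10.1 CPM (low). In batch 3, cells above the median held 179.8 CPM and cells below it 17.6 CPM, and naive cells of batch 2 held none (log2 fold over both batches 3.26 ± 0.48 SE, unadjusted p = 0.00462, edgeR adjusted p = 1). Ifi47 behaved alike, with 39.1 CPM (high) and 2.80 CPM (low) in batch 2 and 431 CPM (above) and 44.8 CPM (below) in batch 3 (3.57 ± 0.42 SE, unadjusted p = 0.00228, edgeR adjusted p = 1). In batch 2, 98% of the Ifi47 reads of low cells came from 1 cell. Gbp4 stood at 76.7 CPM (high) and 0.467 CPM (low), with 59.9% of the high reads in 1 cell, and at 201 CPM (above) and 56.2 CPM (below) in batch 3. Irgm1 was widely found in both classes, in 28 of 38 high cells and 20 of 42 low cells of batch 2 (63.2% and 50% at equal depth), at 328 CPM (high) and 219 CPM (low). Only 2 of 53 naive cells of that batch held a read of Irgm1, at 1.79 CPM in the naive sum.

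Tgtp1, another GTPase of this family, came next after Cd74 and H2-Eb1 by its correlation with MHC II CPM over cells, at 0.31 in batch 2 and 0.32 in batch 3. It was found in 13 of 38 high cells, 5 of 42 low cells and no naive cell of batch 2, at 29.3 CPM (high) and 4.61 CPM (low). The promoters of Tgtp1 (chr11:48992247-48992496, minus strand) and Igtp (chr11:58199306-58199555, plus strand) are shown because these 2 genes, like the class II genes, were found more often in high cells and carry other motifs. They are the 250 bases before the RefSeq start (GRCm38.p6), 5′ to 3′, with a gamma-activated site and, after it, an interferon-stimulated response element in capitals.
Tgtp1: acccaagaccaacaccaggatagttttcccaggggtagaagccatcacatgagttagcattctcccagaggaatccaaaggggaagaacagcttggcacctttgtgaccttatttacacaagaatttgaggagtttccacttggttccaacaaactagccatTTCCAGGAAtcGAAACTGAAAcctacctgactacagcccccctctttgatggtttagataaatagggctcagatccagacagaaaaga
Igtp: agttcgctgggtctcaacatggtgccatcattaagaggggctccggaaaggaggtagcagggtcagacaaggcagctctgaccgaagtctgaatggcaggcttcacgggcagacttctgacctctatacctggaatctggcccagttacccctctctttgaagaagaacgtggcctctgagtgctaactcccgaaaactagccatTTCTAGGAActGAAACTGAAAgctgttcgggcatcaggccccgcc
The gamma-activated site, TTCNNNGAA, is known from genes that interferon gamma induces, and the interferon-stimulated response element is bound by interferon regulatory factors. They were searched on both strands and do not overlap here. The first lies 88 to 80 bases before the start of Tgtp1 and 45 to 37 before that of Igtp, and the second 77 to 68 and 34 to 25 bases before. Of 10 GTPases with a promoter in the table, 6 held the first and 9 the second, and none held the Y box. Over all 32851 promoters the shares were 7.02% and 2.98%.

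The upstream interferon gamma pathway did not differ in one direction. Of 11 tested core members, 2 were at least 2-fold higher and 1 at least 2-fold lower in high cells of batch 2 (median -0.18). Jak1 stood at 253 CPM (high) and 287 CPM (low), and Irf9 at 42.4 CPM (high) and 42.9 CPM (low). The T cell and natural killer cell genes, Ifng among them, were near 0, with 3 of 15 found in each class of batch 2 and summed levels of 0.542 CPM (high) and 1.58 CPM (low). Ifng itself had no read in either class.

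Among other interferon gamma induced genes with immune roles, 10 of 15 were at least 2-fold higher in high cells of batch 2 and none at least 2-fold lower (median 1.17), though only 6 of 14 tested were higher and 1 lower when cells were thinned to 500000 counts. Across the median of batch 3, 9 of the 15 were at least 2-fold higher and 0 at least 2-fold lower (median 2.05). C3, the central complement protein, stood at 176.99 CPM (high) and 63.04 CPM (low) in batch 2 and at 244 CPM (above) and 58.8 CPM (below) in batch 3, but was found in 47.4% of high and 45.2% of low cells (39.5% and 40.6% at equal depth). The T cell attractant Cxcl9 stood at 53.6 CPM in 9 of 38 high cells and 23.8 CPM in 11 of 42 low cells, and Cxcl11 at 11.7 CPM (high) and 0.988 CPM (low). Both had the other order across the median of batch 3, where Cxcl9 stood at 397 CPM above and 482 CPM below and Cxcl11 at 36.7 CPM above and 43.9 CPM below. The costimulatory genes Cd80 and Cd86, which professional antigen-presenting cells use to activate T cells, had no read in any inflamed cell of either batch. Cd40 had none in batch 2 and 6.82 CPM in the high sum of batch 3.

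Genes of the type I interferon response differed between the class comparison of batch 2 and the median split of batch 3, which are unlike contrasts. In batch 2, 13 of 22 were at least 2-fold higher in high cells and 3 at least 2-fold lower (median 1.18), and the share of cells with a read was higher in high cells for 17 at equal depth. Across the median of batch 3, 7 were at least 2-fold higher and 8 at least 2-fold lower (median -0.15). Parp9, an antiviral ADP-ribosyltransferase family gene, stood at 75.9 CPM in 39.5% of high cells and 1.87 CPM in 14.3% of low cells of batch 2 (28.9% and 9.38% at equal depth), and at 13.95 CPM above and 17.98 CPM below the median of batch 3. Oasl2 stood at 66.8 CPM (high) and 47.9 CPM (low), Ddx58, which encodes the RNA sensor RIG-I, at 88.6 CPM (high) and 71.4 CPM (low), and Ifi35 at 39.4 CPM (high) and 38.997 CPM (low).

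Ccl20, the chemokine that attracts cells with the receptor CCR6, stood at 647 CPM (639.7 to 654, exact Poisson 95% interval) in high cells of batch 2 and 146.1 CPM (142.2 to 150.1) in low cells. It was found in 23 of 38 high cells and 22 of 42 low cells, and at equal depth in 39.5% of high and 46.9% of low cells. The gap thus lay in the level of single cells, whose highest was 11932 CPM in high cells (45.5% of the high reads) and 1610 CPM in low cells. In batch 3 it stood at 2753 CPM above the median and 583 CPM below it (log2 fold over both batches 2.23 ± 0.18 SE, unadjusted p = 0.000695, edgeR adjusted p = 1). Over cells, Ccl20 had almost no rank correlation with MHC II CPM, 0.02 in batch 2 and 0.06 in batch 3. Of 10 chemokines tested, 4 were at least 2-fold higher in high cells of batch 2 and none at least 2-fold lower. The neutrophil attractant Cxcl1 stood at 625 CPM (high) and 502 CPM (low).

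Il1rn, the interleukin 1 receptor antagonist named in the study's title, stood at 123.8 CPM in 17 of 38 high cells of batch 2 (44.7%, 28.6 to 61.7%) and 49.5 CPM in 16 of 42 low cells (38.1%, 23.6 to 54.4%). At equal depth it was found in 36.8% of high and 34.4% of low cells. The order was the other way in batch 3, with 121.2 CPM above the median and 254 CPM below it. It did not pass the test across the median over both batches (unadjusted p = 0.752, edgeR adjusted p = 1).

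Mitotic genes were found together in a few high cells and in 1 low cell. At least 10 of the 28 G2 and M phase genes had reads in 5 of 38 high cells (13.2%, 4.41 to 28.1%) and 1 of 42 low cells (2.38%, 0.0603 to 12.6%) of batch 2, and in 9 of 73 high cells of batch 3. At equal depth there were 4 of 38 high cells and 1 of 32 low cells in batch 2. In batch 3 these were 7 of 38 cells above the median and 2 of 38 below it, and the intervals overlap in both batches. Among naive cells the counts were 2 of 53 and 0 of 59. Of these genes, 14 of 28 were at least 2-fold higher in high cells of batch 2 and 3 at least 2-fold lower (median 1.12). With each gene's top cell left out of each sum, 21 were higher and none lower (median 4.24), which moves the median above that of the GTPases. Across the median of batch 3 the counts were 26 higher and 0 lower (median 5.65). Top2a, the topoisomerase of dividing cells, stood at 199 CPM (high) and 27.96 CPM (low) in batch 2 and at 165.2 CPM (above) and 4.45 CPM (below) in batch 3. Cenpf, a kinetochore gene, stood at 58.7 CPM (high) and 22.3 CPM (low), with 98.4% of the low reads in 1 cell. S phase genes had a median of 1.46 in batch 2 (11 of 19 at least 2-fold higher, 2 lower) and 0.24 across the median of batch 3.

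The epithelial lists had smaller median folds in batch 2 than the GTPases or the G2 and M phase genes. None of 20 basal genes was at least 2-fold higher in high cells of batch 2, against 26.4% of all genes. At least 2-fold lower were 5 of them (median -0.29), near the all-gene share of 22.5%. Across the median of batch 3 the basal median was -0.53. Of 15 luminal genes, 4 were at least 2-fold higher and 1 at least 2-fold lower in batch 2 (median 0.12). Across the median of batch 3 these counts were 1 and 4 (median 0.03). Lamb3, a chain of laminin 332 in the basement membrane, stood at 47.8 CPM in high cells of batch 2 (0, 14.7 and 348 CPM at the lowest, median and highest cell) and 163.8 CPM in low cells (0, 9.89 and 1904 CPM). In batch 3 it stood at 64.1 CPM above and 155.4 CPM below the median (log2 fold over both batches -1.49 ± 0.40 SE, unadjusted p = 0.0273, edgeR adjusted p = 1). Its sums were lower in high cells although the median cell was not. Of 14 squamous and wound genes, 3 were at least 2-fold higher and 4 at least 2-fold lower in batch 2 (median 0.27). The all-gene shares were 26.4% and 22.5%. Across the median of batch 3, 2 of the 14 were at least 2-fold higher and 7 at least 2-fold lower (median -0.87). Krt13, a keratin of stratified epithelium, stood at 65.1 CPM (high) and 474 CPM (low). Ly6a, which encodes the Sca-1 used in the sort, stood at 1802 CPM (high) and 2187 CPM (low), with a median cell of 1671 CPM in high and 1308 CPM in low cells.

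**Figure D4:**
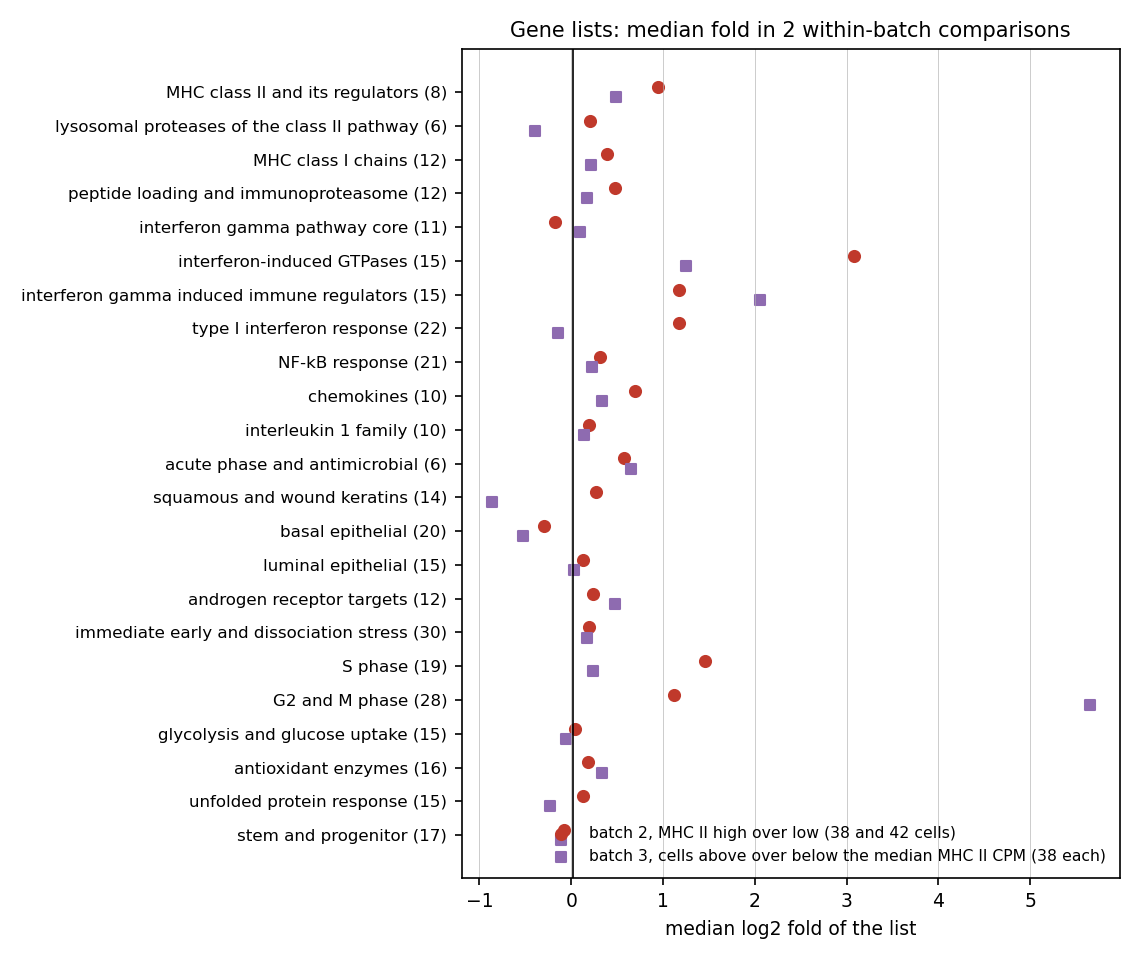
Median log2 fold of each gene list (number of tested genes in brackets) for high over low cells in batch 2 (circles) and for cells above over below the median MHC II CPM in batch 3 (squares), with the black line at the all-gene median of batch 2, 0.02. The GTPases (3.08 and 1.25) and the interferon gamma induced immune regulators (1.17 and 2.05) lie to the right in both. The G2 and M phase genes lie at 1.12 and 5.65, and the basal genes to the left in both (-0.29 and -0.53).

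Low cells themselves stood above naive cells in some interferon-linked lists, not in others, and also in lists outside them. In batch 2, 10 of 12 class I genes, 12 of 15 GTPases and 11 of 15 interferon gamma induced regulators were at least 2-fold higher in low cells than in naive cells, against 25.7% of all genes. The counts were 3 of 12 for peptide loading and the immunoproteasome and 5 of 11 for the interferon gamma core, and 8 of 22 type I interferon response genes were higher and 8 lower. In the class II list 4 of 8 were higher and 2 lower. Outside these lists, the genes higher in low cells were 12 of 14 squamous and wound genes and 5 of 6 acute phase and antimicrobial genes. They were also 13 of 21 NF-kB response genes, 6 of 10 chemokines and 6 of 10 interleukin 1 family genes. Immediate early and dissociation stress genes were at least 2-fold lower in low cells than in naive cells for 23 of 30, against 31.9% of all genes. Levels followed the order of high, low and naive cells for 15.6% of all genes. The counts were 10 of 15 GTPases, 11 of 15 interferon gamma induced regulators and 8 of 12 class I genes. They were 10 of 22 type I interferon response genes, 2 of 11 of the interferon gamma core and 2 of 8 of the class II list. The order was not particular to interferon-linked lists. It was found for 4 of 6 acute phase and antimicrobial genes, 6 of 10 chemokines and 5 of 10 interleukin 1 family genes. It was also found for 7 of 14 squamous and wound genes and 9 of 21 NF-kB response genes, but for 0 of 30 immediate early genes. These are single sums per group with no test.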

How the data were processed

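Single-cell RNA-seq counts of 282 cells in 2 batches were used. The authors deposited 1 table per batch of unnormalized read counts for 48440 genes. TopHat2, HTSeq, R 3.4.1, Seurat 1.4 and the build GRCm38.p6 are named, without roles, per the submitters' processing notes. Libraries were SMARTer and Nextera, single-end and without molecular identifiers, per the labels' protocols, and strand is not stated, so overlapping genes and near copies cannot be told apart. The treatment of multiply mapped reads is not stated there.

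Cells under 1000 detected genes or 50000 counts (14) were left out. No doublet caller was run. Counts were summed per class and batch and compared with edgeR 4.0.16 (quasi-likelihood test, TMM, filterByExpr, batch and class as terms, 1 residual degree of freedom, Benjamini-Hochberg adjustment) in R 4.3.3, with DESeq2 1.42.0 as an alternative. On simulated data the edgeR fit of high against low called none of the changed genes, and DESeq2 called unchanged genes too. Neither the absence of calls nor the DESeq2 count is therefore read as a result. The edgeR fit of the median split called 6 of 95 genes with a true log2 fold of 2 in size and 36 of 99 with 4. It thus missed most changed genes, and it called 3 unchanged genes. P-values rest only on the spread between the sums, which may be technical. The labels do not say that a batch is a set of animals. In the fit of high against low the prior degrees of freedom were infinite, so the spread was taken over all genes. Its p-values and SE therefore do not measure a gene's own spread between the sums. The labels name the batch, which pairs the sums (correlation of their deviations 0.03). Log2 folds inside a batch used a prior count of 2. A fold against a sum of 0 depends on that prior. Shares have exact Clopper-Pearson intervals at 95%. Symbols came from GENCODE (48058 of 48440 matched), promoters from RefSeq.

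The members, classes and gene lists were chosen with earlier results of these data known. Named genes were the class II list, up to 4 members per other list with the largest fitted fold among genes found in at least 20% of inflamed cells, the 10 higher and 10 lower genes with the largest smaller within-batch fold, the 5 best rank correlations with MHC II CPM, and Il1rn, Ccl20, Krt13 and Ly6a. Some genes that the rule names are not reported here. B2m, H2-K1, H2-D1, Krt14 and genes in complete counts of a list were named outside it, after their values were seen. Alternatives were other thresholds, thinning, the median split, other scalings and filters, no batch term, and leaving out cells or a batch.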

Additional observations from a re-analysis of the deposited data

Results flagged for a closer look

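High cells were also found among the inflamed cells that the filter on genes and counts left out, which no comparison used. They were 1 of 5 left-out inflamed cells in batch 2 (20.0%, exact 95% interval 0.505 to 71.6%) and 1 of 2 in batch 3 (50%, 1.26 to 98.7%), against 0 of 2 left-out naive cells in batch 2 and 0 of 5 in batch 3. These shares were picked out as signal in unused cells above that in naive cells, and their intervals are wide.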

How the results depend on the processing

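The edgeR test called 2 genes lower; 3 were called with no filter on low counts and 3 without the deepest cell of each sum, 1 with thinning, 1 with the class set at 1 read and 1 without the batch 3 low cell that held 4 reads, and 0 with the median split, upper-quartile factors or a 20% gene filter. DESeq2 called 500 higher and 16 lower. Without the replicate block, that is without the batch term that pairs the sums, 0 genes were called (at an unadjusted p below 0.05, 674 were higher and 80 lower). Upper-quartile factors gave an all-gene median of 0.53, against 2.08 with TMM. The log2 fold of Sdc4 was 0.075 without the deepest cell of each sum and 0.017 without the batch 3 low cell with 0 reads.

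At a threshold of 1 read, 80% of batch 2 inflamed cells were high. The class II list median (0.94) was 1.43 at 5 CPM, 3.56 thinned, 4.04 at 1 read, 3.71 in cells of at least 500000 counts, 2.61 with a 20% gene filter, 1.86 without each gene's top cell and 6.19 in batch 3 alone, but -0.14 with the median split, where a further gene passed the filter, and 0 without a filter. The class I median (0.39) was 0.17 at 5 CPM and 0.17 thinned, 0.33 for high cells of at least 20 reads, 0.20 with the median split, 0.46 in cells of at least 500000 counts, 0.41 with upper-quartile factors, 0.29 without a filter, 0.33 with a 20% filter, 0.60 without top cells, 0.93 in batch 3 alone and -0.18 at 1 read. The loading median (0.48) was -0.14 at 1 read, 0.82 without top cells and 3.50 in batch 3 alone, and the GTPase median (3.08) was 4.86 at 1 read and 9.14 in batch 3 alone. The causes were not tested. The settings with cells of at least 500000 counts, without single batch 3 cells and without top cells were chosen after seeing the data.

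Batch 3 gives almost no low cells, so the class comparison rests on batch 2 and has 1 sum per class there. Most genes were found in few cells, and single cells carried much of many sums.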

Other observations

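Mitochondrially encoded genes stood lower in high cells. In batch 2, 16 of 18 were below low cells, 7 of them at least 2-fold (median log2 fold -0.92), and across the median of batch 3, 16 stood lower in cells above it (median -0.51). In the 4-sum test 5 had an unadjusted p under 0.05 and 0 were called. One low cell of batch 2 with 94.3% mitochondrial counts is part of the sum, but it held under 500000 counts. Among the low cells of batch 2 with at least 500000 counts the highest share was 37.3%. The part of single cells in these folds was not tested.

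Outside the lists, the genes with the largest folds in the same direction in both batches were mostly sparse. Mief1, which recruits the mitochondrial fission factor, stood at 148.1 CPM (high) and 2.74 CPM (low) in batch 2, but was found in 31.6% of high and 25% of low cells at equal depth. The antagonist of growth factor signalling Spry1 stood at 29.1 CPM (high) and 1.40 CPM (low), and its rank correlation with MHC II CPM was 0.25 in batch 2 and 0.31 in batch 3, but across the median of batch 3 it stood at 79.1 CPM above and 82.1 CPM below. H2-Q2, a class I gene outside the list, stood at 8.94 CPM (high) and 0.192 CPM (low). On the lower side, Arfgap3 stood at 12.6 CPM (high) and 141.2 CPM (low), Slc7a8, an amino acid transporter, at 28.9 CPM (high) and 160.6 CPM (low), and the adenosine kinase gene Adk at 45.4 CPM (high) and 222 CPM (low). Across the median of both batches Adk had an unadjusted p of 0.00878 and Slc7a8 of 0.0257, with edgeR adjusted p = 1 each, while Mief1 and Arfgap3 had the other direction across the median of batch 3 (log2 folds -0.18 and 0.49).

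The antimicrobial lectin Reg3g stood at 177.3 CPM in 17 of 38 high cells of batch 2 and 27.6 CPM in 9 of 42 low cells (39.5% and 12.5% at equal depth), 96.6% of the low reads being in 1 cell. The epithelial secretory gene Wfdc2 stood at 145.9 CPM in 65.8% of high and 66.6 CPM in 45.2% of low cells (57.9% and 43.8% at equal depth), and in batch 3 at 81.7 CPM above and 40.9 CPM below the median. Lcn2, an iron-withholding protein of inflamed epithelium, was level between the classes, at 1344 CPM (high) and 1332 CPM (low). Of 21 NF-kB response genes, 4 were at least 2-fold higher and 5 at least 2-fold lower in high cells of batch 2. The shares over all genes were 26.4% and 22.5%, so these counts do not set the list apart.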
